A study of Arabidopsis thaliana with 12 samples.

Results

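Leaf ageing was followed in chlorella-1, a mutant line of Arabidopsis thaliana, by comparing leaves of 26 d with leaves of 14 d. The members are the 6 chlorella-1 libraries of the 12 in the series, chosen by genotype alone: 3 libraries from leaves of 14 d and 3 from leaves of 26 d. Per the labels and the title of the series, chlorella-1 is a knockout of CHLORELLA, a gene for a long noncoding RNA that is directed to chloroplasts. The other 6 libraries are wild-type Col leaves of the same ages, with 3 libraries at each age, and serve below only as a reference for how the mutant's age change differed. Total RNA was extracted from ground leaf tissue, and libraries were made with a stranded kit for RNA depleted of plant ribosomal RNA. No treatment is labelled, nor a leaf position or a number of plants, and chlorella-1 is a single line with no other mutant allele beside it. The labels do not say whether libraries came from separate plants, so p-values measure only the spread between these libraries, which may be technical.

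Leaf senescence is the ordered end of a leaf's life. Chloroplasts, which hold most of a leaf's protein, are taken apart, chlorophyll is broken down to colourless products that are stored in the vacuole, and nitrogen, sugars and metals leave through the phloem. The programme is driven by transcription factors, above all of the NAC and WRKY families, and is promoted by ethylene, abscisic acid, jasmonate and salicylic acid and delayed by cytokinin and auxin. Photosynthesis depends on both genomes, since the plastid genome encodes the reaction centre cores and the large subunit of Rubisco, while the nucleus encodes the antenna proteins, the Rubisco small subunit and most enzymes.

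The libraries held 45120547 to 65394628 read counts assigned to genes. A count was found for 21254 to 21678 genes in the 14 d libraries and for 22542 to 23518 in the 26 d libraries (two-sided exact permutation p = 0.1, the smallest that 3 against 3 allow). Neither the table nor the annotation names CHLORELLA, so its RNA was not checked and the genotype is as labelled. Leaf genes for antenna proteins and Rubisco were strongly expressed at 14 d, and the 3 seed storage genes were at 0 counts in all 6 libraries. The 26 d libraries varied more among themselves than the 14 d libraries did. The biological coefficient of variation was 12.5% at 14 d and 44.3% at 26 d, and Spearman's rho between replicates across genes was 0.989 to 0.992 and 0.925 to 0.97. At 26 d, replicate 2 stood apart: it lay far from the other two on the second principal component, which held 6.9% of the variance against 88.2% on the first, which separated the ages. Values below are CPM, read counts scaled to a common library size with TMM factors, for replicates 1, 2 and 3 of an age in that order, and a log2 fold change is 26 d minus 14 d with its standard error. Because tissue was sampled in bulk, fewer cells of a type and less RNA per cell cannot be told apart in any of these results.

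Most expressed genes differed with age in the mutant. Of 19652 genes tested, 6746 were higher and 6180 lower at 26 d at an adjusted p under 0.05 (edgeR quasi-likelihood test, Benjamini-Hochberg adjustment), which is 34.3% and 31.4% of the genes tested and 65.8% in all. These percentages are the background against which the counts of each gene group below are read. Genes with 0 counts over an age passed the filter on low counts through the other age alone. Group counts therefore describe the genes tested. Without replicate 2 of the 26 d group the counts were 7290 and 6764. The changes were large: 2422 genes rose and 1597 fell by at least 8-fold, and 1325 rose and 397 fell by at least 32-fold. The median log2 fold change of all genes tested was -0.05, and medians of gene groups below are of log2 fold changes too. In 14978 genes, 76.2% of those tested, the 3 libraries of the ages did not overlap. At the extremes, 73 genes had 0 counts in every 14 d library and at least 5 CPM in every 26 d library, and 8 genes showed the reverse.

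The RNA that the libraries held most of also changed. Leaving ribosomal and transfer RNA genes aside, plastid-encoded genes took 72.7%, 71.1% and 70.4% of the counts at 14 d and 58.2%, 60.3% and 49.4% at 26 d, so the ages did not overlap (mean 71.4% ± 1.18 and 56.0% ± 5.81, SD, n = 3; two-sided exact permutation p = 0.1). A single transcript, psbA, held much of this share; its product is D1, a core protein of photosystem II. It took 49.6%, 47.8% and 46.6% of the counts at 14 d and 54.0%, 57.4% and 45.2% at 26 d, ranges that overlap (exact permutation p = 0.4). With psbA set aside, the other plastid genes went from 45.9%, 44.7% and 44.6% of the remaining counts to 9.20%, 6.95% and 7.59%, a change of means of -37.1 percentage points (45.1% ± 0.699 and 7.91% ± 1.16, SD, n = 3; exact permutation p = 0.1). Mitochondria-encoded genes went from 0.373% ± 0.0241 to 0.844% ± 0.201 (SD, n = 3; exact permutation p = 0.1), without overlap. Nuclear genes went from 28.2% ± 1.17 to 43.2% ± 5.61 (SD, n = 3; exact permutation p = 0.1), also without overlap. Shares of a library are parts of 1 whole, so a smaller plastid share by itself makes the nuclear and mitochondrial shares larger. In Col leaves the plastid share was 67.6% at 14 d and 72.0% at 26 d, and without psbA it was 45.8% and 34.1%.

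**Figure D1:**
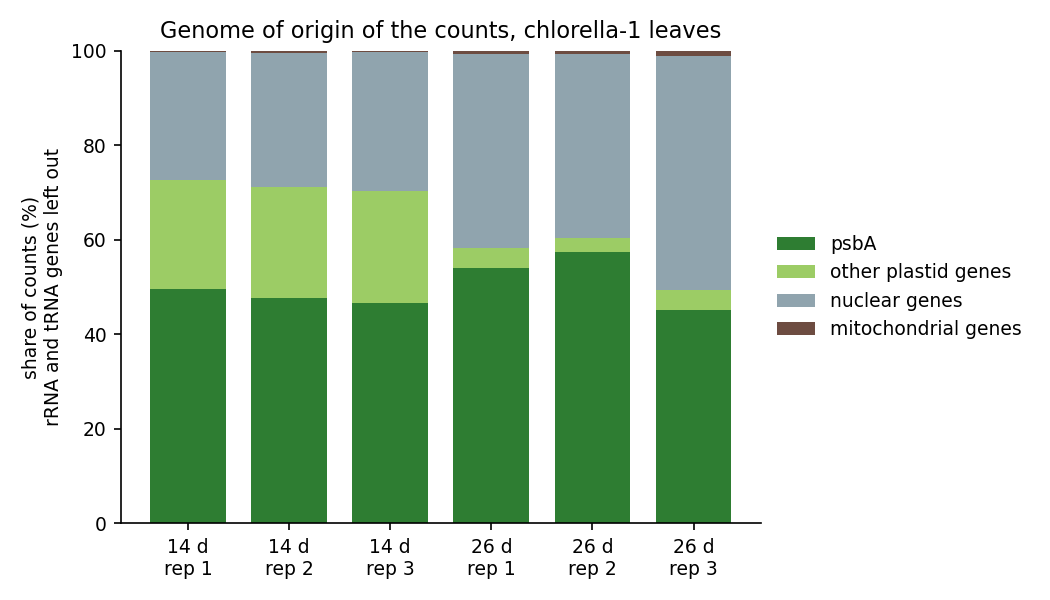
Share of read counts (percent, without ribosomal and transfer RNA genes) from psbA, other plastid genes, nuclear genes and mitochondrial genes in each chlorella-1 library, with the 14 d libraries on the left and the 26 d libraries on the right. The part for plastid genes other than psbA is much smaller in every 26 d library, while psbA holds 45.2% to 57.4% of the counts there.

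Among nuclear transcripts, the set that held most counts was exchanged almost completely. At 14 d the nuclear protein-coding genes with the most counts were LHCB1.3, ARR8, LHCB1.5, LHCA4, LHCB5, LHCB1.4, LHCB3, LHCA3, LHCB1.1 and RCA, which are 8 antenna genes, Rubisco activase and a response regulator. At 26 d they were ARR8, AT1G07590, SAG12, NYC1, UBQ10, AT2G31141, RD21A, RD20, MT2B and SAMDC. LHCB1.3 made up 2.87% ± 0.0930 of the nuclear counts at 14 d and 0.0971% ± 0.0350 at 26 d (SD, n = 3). The senescence protease gene SAG12 went from 0% to 0.752% ± 0.251, and NYC1, which starts chlorophyll b breakdown, from 0.00666% ± 0.000546 to 0.748% ± 0.0306 (SD, n = 3). These shares are not corrected for gene length, so the order given is one of counts and not of levels. The gene listed as ARR8, which the annotation describes as a response regulator, led or came next at both ages, with 2.33% ± 0.266 and 3.53% ± 0.633; it overlaps an antisense gene, and the strand setting of the counting is not given in the sources used here. AT1G07590, a gene for a protein with tetratricopeptide repeats, rose from 0.121% ± 0.0180 to 1.28% ± 0.158, and it overlaps another gene on its own strand. Of 5592 tested genes that overlap an antisense gene, 1841 were higher and 1785 lower, and reads of both partners cannot be told apart without strand. Beside the genes marked where they are described, this holds for the antenna and photosystem genes LHCB1.5, LHCB3, LHCB6, LHCA4, LHCA5, PSAG and PSBR, for RCA, SIG4, NPQ1, PSY, ZDS, APL1, BAM3, PHS1, STP1, ASN1, GLU1, NRT1.5, PAP17, FER1, PES2, ATG9, ATG10 and XCP1, and for the regulators and hormone genes ABA2, ABI1, ARR6, ARR9, CKX5, ERS1, FKF1, JAZ10, JUB1, PIF1, VNI2 and WRKY53, and for HSP101 and AT2G31141.

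Every called plastid-encoded gene was lower at 26 d. Of 123 genes of the plastid genome tested, 106 fell and 0 rose, with a median log2 fold change of -2.38. For rbcL, which encodes the large subunit of Rubisco, the 14 d libraries held 130500, 119000 and 132900 CPM and the 26 d libraries 9311, 8514 and 5843 CPM. The ages are far apart in all 6 libraries, with a change of -4.01 ± 0.39 log2 units (adjusted p = 0.000165). Its partner in the nucleus, RBCS1A (AT1G67090), fell as well, from 1690, 2051 and 2156 CPM to 73.6, 94.4 and 87.4 CPM (log2 fold change -4.53 ± 0.26, adjusted p = 3.61e-05). Within the plastid genome the size of the fall differed by the complex encoded. The 6 subunits of ATP synthase all fell, with a median of -3.57 and log2 fold changes from -3.65 for atpH to -2.99 for atpI. The 12 genes listed for the NADH dehydrogenase-like complex all fell as well, with a median of -3.41; ndhF, which overlaps an antisense gene, was at -3.88 ± 0.23 log2 units. The 27 genes for photosystem, cytochrome and Rubisco subunits had a median of -1.91, of which 25 fell. The exceptions were psbA (0.09 ± 0.48 log2 units, adjusted p = 0.882) and psbN, a gene between psbT and psbH on the other strand (0.14 ± 0.35 log2 units, adjusted p = 0.738). Small falls included a log2 fold change of -1.02 for psbD, the D2 protein of photosystem II, and -0.71 for petB, cytochrome b6.

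Genes of the plastid's own gene expression fell too. All 24 listed plastid ribosomal protein genes were lower, with a median of -2.50, among them rps12 at a log2 fold change of -2.04. The transcript of rps16 was at 10.4, 10.8 and 10.8 CPM at 14 d and at 0 counts in every 26 d library, at least 610-fold lower if the 26 d group is set at a floor of 3 counts. In Col leaves of 26 d, rps16 was at 0, 10.06 and 9.995 CPM, so a 0 also occurred in replicate 1 of the wild type. Whether these 0 values come from the counting of reads was not tested. In the group of plastid polymerase subunits, maturase and other genes, 14 of 15 fell with a median of -2.48, including rpoB at a log2 fold change of -3.01 and rpoC2 at -3.09, which encode subunits of the plastid-encoded RNA polymerase. The one not called was clpP, a subunit of the Clp protease, at -0.17 ± 0.25 log2 units. Genes of the inverted repeat are listed in duplicate and their copies share reads. Mitochondrial protein genes rose instead: 27 of 31 were higher and 0 lower, with a median of 1.0. Cytochrome oxidase subunit cox1 went from 859, 912 and 828 CPM to 1817, 2541 and 2101 CPM, without overlap (log2 fold change 1.31 ± 0.23, adjusted p = 0.00212). Leaving out single libraries left 23 to 29 of the mitochondrial genes called higher, and 16 were both called and higher by at least 2-fold.

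Nuclear genes of the light reactions fell. All 20 genes for light-harvesting antenna proteins were lower at 26 d, with a median of -4.63, and their summed level went from 47850 to 50820 CPM at 14 d to 2113 to 2755 CPM at 26 d. LHCB1.3 (AT1G29930), an antenna protein of photosystem II that overlaps an antisense gene, was at 8624, 8239 and 8275 CPM at 14 d and 412, 636 and 212 CPM at 26 d (log2 fold change -4.32 ± 0.46, adjusted p = 0.00024). No 26 d library came near a 14 d library. The largest fall in the family was that of LHCB1.4 (AT2G34430), from 3639, 3348 and 3169 CPM to 10.2, 30.4 and 17.8 CPM (log2 fold change -7.44 ± 0.52, adjusted p = 5.59e-05), and the smallest that of LHCA5, a minor antenna protein of photosystem I, at a log2 fold change of -1.4. Copies of LHCB1 are nearly identical in sequence, so reads may be split among them. The 30 genes for photosystem, cytochrome, plastocyanin, ferredoxin and ATP synthase subunits also all fell, with a median of -3.64 and a narrow log2 range from -4.83 to -2.63 for PSBR. PSAG (AT1G55670), a photosystem I subunit, had 208, 207 and 218 CPM at 14 d and 10.6, 8.72 and 9.49 CPM at 26 d (log2 fold change -4.46 ± 0.20, adjusted p = 2.68e-05).

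Genes of carbon fixation fell too. Of 20 nuclear Calvin cycle genes, 19 fell, with a median of -3.59. Small subunit genes of Rubisco fell by different amounts, with log2 fold changes from -4.53 for RBCS1A to -7.16 for RBCS2B. Rubisco activase, RCA (AT2G39730), keeps Rubisco active by removing bound inhibitors. It was at 2447, 2264 and 2505 CPM at 14 d and at 447, 71.6 and 472 CPM at 26 d (log2 fold change -2.86 ± 0.66, adjusted p = 0.00714), with replicate 2 of the 26 d group below the other two. The gene not called was CP12-1, a regulatory protein of the cycle, at 0.03 ± 0.20 log2 units. Of 13 genes of leaf starch, 12 fell with a median of -2.62, both of synthesis (APL1, a subunit of ADP-glucose pyrophosphorylase, log2 fold change -3.67) and of the nightly breakdown (beta-amylase BAM3, -3.78; glucan phosphorylase PHS1, -3.85). The alpha-amylase gene AMY1, which overlaps another gene on its strand, rose by 6.89 ± 0.28 log2 units.

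**Figure D2:**
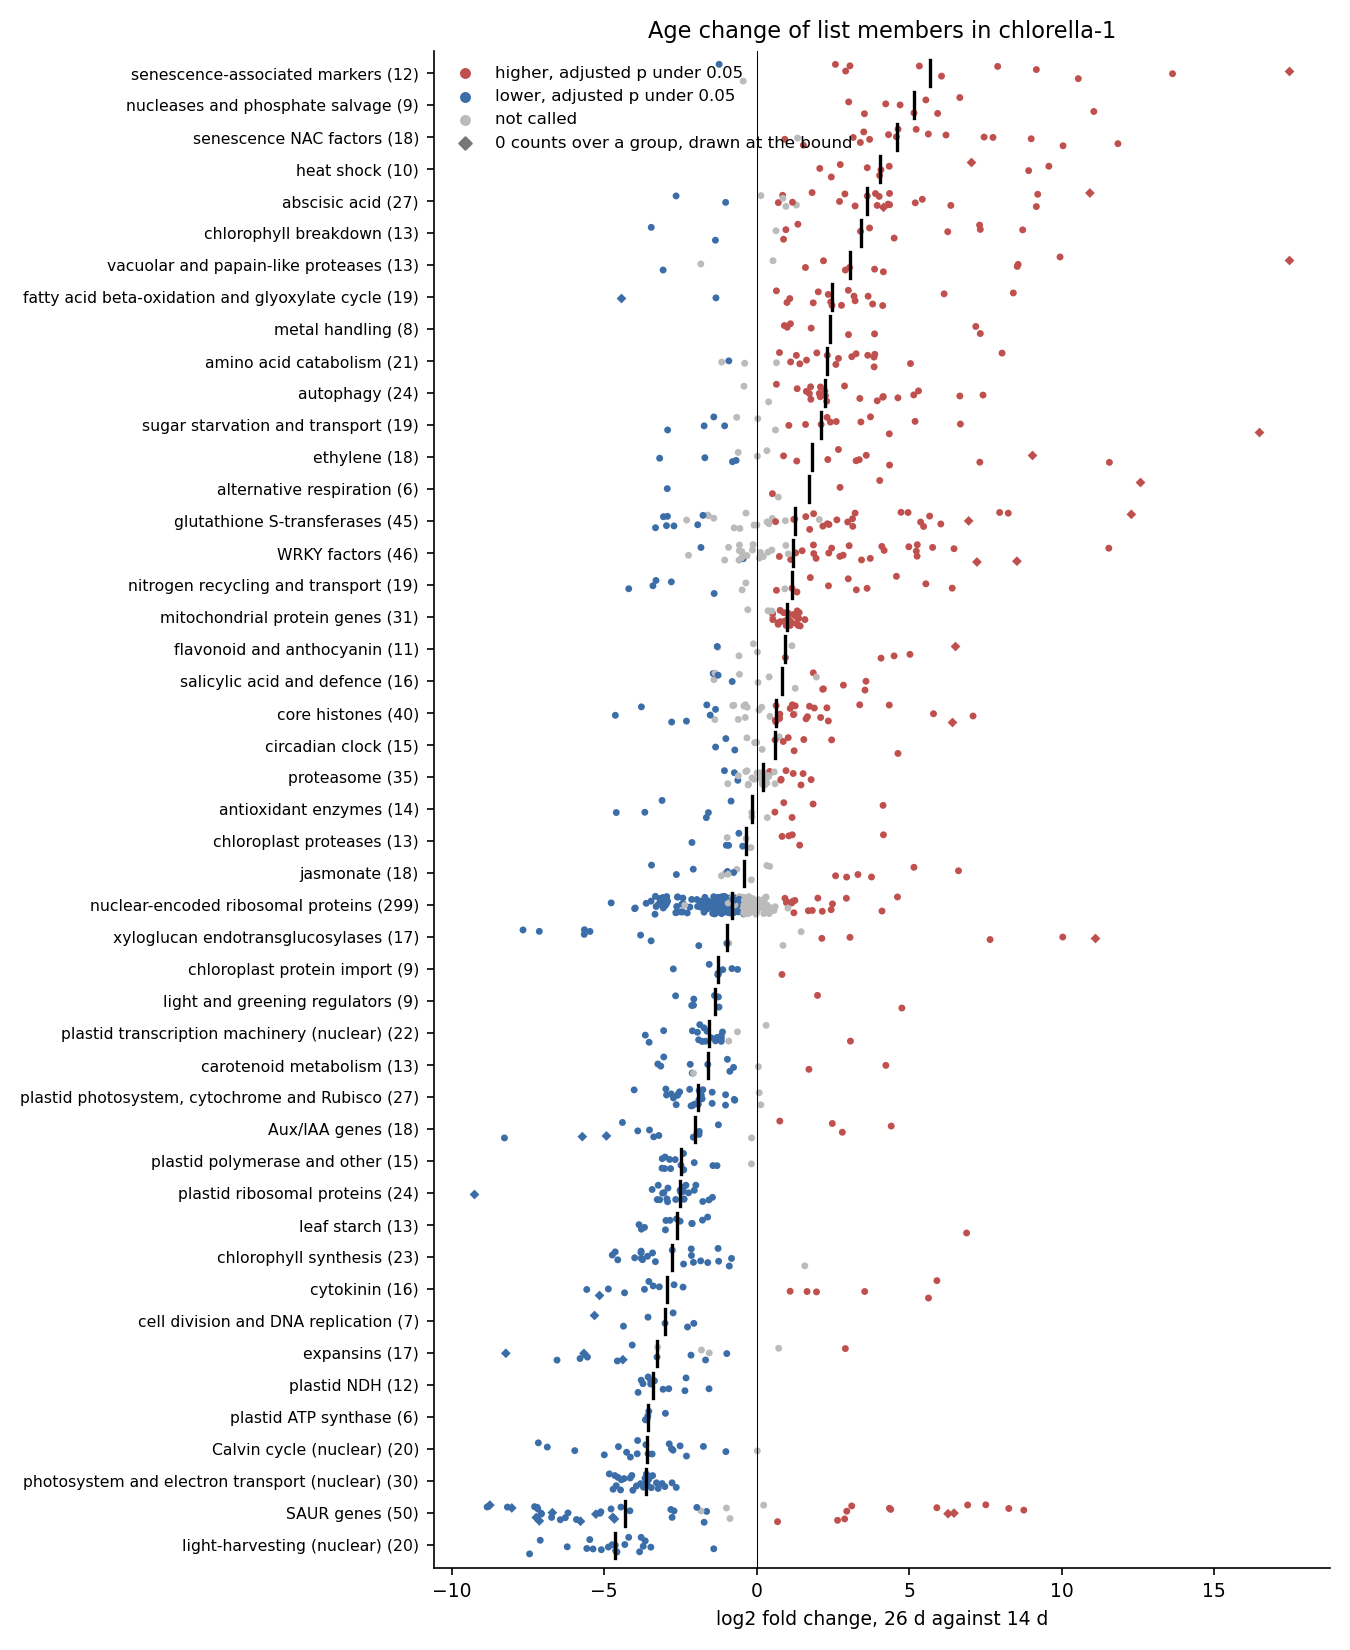
Log2 fold change (26 d minus 14 d) of every tested member of the gene lists in chlorella-1 leaves. Each point is a gene, red where called higher, blue where called lower and grey where not called, black ticks are list medians, and diamonds mark genes with 0 counts over an age, drawn at their bound. Lists of photosynthesis lie to the left of 0, with medians of -4.63 for antenna genes and -3.64 for photosystem genes, and lists of senescence NAC factors, nucleases and autophagy lie to the right, with medians of 4.61, 5.16 and 2.25.

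Genes of chlorophyll synthesis fell and genes of chlorophyll breakdown rose. Of 23 synthesis genes, 22 were lower, with a median of -2.76. GUN5 (AT5G13630), the large subunit of the magnesium chelatase that commits porphyrin to chlorophyll, fell from 787, 906 and 979.7 CPM to 41.3, 41.4 and 24.9 CPM (log2 fold change -4.63 ± 0.30, adjusted p = 4.64e-05). The methyltransferase that acts next, CHLM (AT4G25080), fell from 65.9, 66.7 and 70.95 CPM to 2.54, 3.33 and 2.82 CPM (log2 fold change -4.55 ± 0.20, adjusted p = 2.68e-05), and overlaps an antisense gene. Small falls were seen in some early steps shared with haem, with a log2 fold change of -0.89 for HEME2 and -0.82 for HEMB1. PORA, a light-dependent protochlorophyllide oxidoreductase, was not called and was seen at 26 d only in replicate 2, at 0, 10.4 and 0 CPM against 0.905, 1.09 and 1.44 CPM at 14 d.

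In the breakdown pathway, 10 of 13 genes rose and 2 fell, with a median of 3.41. The magnesium dechelatase NYE1 (AT4G22920), also called STAY-GREEN, opens the pathway. Its level was 8.36, 7.96 and 9.77 CPM at 14 d and 1334, 1755 and 1063 CPM at 26 d (log2 fold change 7.31 ± 0.33, adjusted p = 2.68e-05). The chlorophyll b reductase NYC1 (AT4G13250) went from 19.4, 17.5 and 21.5 CPM to 2698, 3995 and 2740 CPM (log2 fold change 7.34 ± 0.33, adjusted p = 2.68e-05). All 26 d libraries lay far above all 14 d libraries for both genes. Pheophytinase, PPH (AT5G13800), rose from 32.6, 29.3 and 33.3 CPM to 593, 986 and 593 CPM (log2 fold change 4.51 ± 0.30, adjusted p = 4.93e-05), and pheophorbide a oxygenase, PAO (AT3G44880), which opens the chlorophyll ring, from 24.6, 22.8 and 23.2 CPM to 219.7, 327 and 204 CPM (log2 fold change 3.41 ± 0.25, adjusted p = 6.67e-05). PAO overlaps another gene on its own strand. Late enzymes that modify the colourless products rose as well, the esterase MES16 by 6.27 ± 0.43 log2 units and the cytochrome P450 CYP89A9 by 3.71 ± 0.23 log2 units. The reductase that follows PAO, RCCR (AT4G37000), fell, from 14.9, 16.3 and 20.3 CPM to 9.39, 2.29 and 8.5 CPM (log2 fold change -1.35 ± 0.48, adjusted p = 0.0403). The chlorophyllase gene CLH1, whose product is not needed for breakdown in senescing leaves, fell by 3.45 on the log2 scale. In the list, 1 member was called lower in place of 2 when any 14 d library or replicate 3 of the 26 d group was left out.

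Regulators of greening were mostly lower. Of 9 genes, 7 fell and 2 rose, with a median of -1.38, and 4 were called lower when any 14 d library was left out. GLK1 (AT2G20570) and GLK2 (AT5G44190) encode GOLDEN2-LIKE factors that activate nuclear photosynthesis genes. GLK1 was at 87.8, 101 and 88.8 CPM at 14 d and 20, 8.95 and 34.5 CPM at 26 d (log2 fold change -2.13 ± 0.46, adjusted p = 0.0052), and GLK2 at 83.9, 81.04 and 88.6 CPM and 27, 5.34 and 28.1 CPM (log2 fold change -2.07 ± 0.56, adjusted p = 0.0147). Both were lowest in replicate 2 of the 26 d group, but no 26 d library reached a 14 d library. The GATA factors GNC and CGA1 fell, with log2 fold changes of -1.38 and -1.25. HY5 (AT5G11260), a bZIP factor of light signalling, rose from 0.58, 0.891 and 1.07 CPM to 18.5, 35.3 and 15.4 CPM (log2 fold change 4.76 ± 0.43, adjusted p = 0.00012). Of the phytochrome-interacting factors, PIF3 rose by 2.0 ± 0.34 log2 units, while PIF1, PIF4 and PIF5 fell, with log2 fold changes of -2.65, -1.23 and -2.06.

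Other chloroplast functions split. Of 22 nuclear genes for the plastid transcription machinery, 18 fell and 1 rose, with a median of -1.56. The sigma factors SIG4 and SIG6 had log2 fold changes of -3.65 and -3.05, while SIG5, a sigma factor that responds to stress, was not called at 0.31 ± 0.28 log2 units. The gene that rose was RPOTmp, a phage-type RNA polymerase found in mitochondria and plastids, at 3.08 ± 0.20 log2 units, and without replicate 3 of the 26 d group 2 genes were called higher. Of 9 import genes, 8 fell, with a median of -1.25. CLPC1, a chaperone of the stroma, rose by 0.83 ± 0.23 log2 units, a call lost without replicate 2 of the 14 d group. The summed level of the import list was higher at 26 d, with 656 to 781 CPM at 14 d and 865 to 1264 CPM at 26 d. Chloroplast proteases were close to the background, with 5 of 13 higher and 5 lower, and 3 lower without any single 14 d library or without replicate 1 of the 26 d group. CLPD, a Clp chaperone known as a senescence and drought gene (ERD1), rose by 4.16 ± 0.39 log2 units. In carotenoid metabolism 9 of 13 genes fell and 2 rose: the desaturase ZDS was at 1.72 ± 0.37 log2 units and the hydroxylase BCH1 at 4.24 ± 0.30 log2 units, against -2.11 for phytoene synthase PSY and -3.14 for violaxanthin de-epoxidase NPQ1.

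Transcription factors that drive senescence rose in the mutant. Of 18 NAC genes listed for senescence, 17 were higher and 0 lower, with a median of 4.61, and their summed level went from 86.3 to 105 CPM at 14 d to 3467 to 5617 CPM at 26 d. ORE1 (AT5G39610), a NAC factor that promotes age-dependent leaf death, was at 1.77, 0.799 and 1.4 CPM at 14 d and 191, 301 and 208 CPM at 26 d (log2 fold change 7.46 ± 0.43, adjusted p = 3.68e-05). NAP (AT1G69490), which links abscisic acid to chlorophyll loss, rose from 6.25, 3.78 and 3.75 CPM to 137, 176 and 206 CPM (log2 fold change 5.23 ± 0.33, adjusted p = 4.29e-05). The largest rise in the list was that of NAC055 (AT3G15500), from 0.683, 0.40 and 0.315 CPM to 1760, 2077 and 1335 CPM (log2 fold change 11.85 ± 0.50, adjusted p = 2.68e-05). No 26 d library overlapped a 14 d library in any of these. JUB1 and VNI2, described as repressors of senescence, rose also, by 3.71 ± 0.95 log2 units and 3.17 ± 0.23 log2 units. NAC090, which has been described as a negative regulator, was not called (1.34 ± 0.52 log2 units).

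Of 67 WRKY genes, 46 passed the filter on low counts, and of these 25 rose and 2 fell, with a median of 1.2; the count of lower genes lay between 0 and 5 when single libraries were left out. WRKY75 (AT5G13080), a positive regulator of senescence, had 3 counts over the 14 d libraries and 9101 over the 26 d libraries, a ratio of normalised counts of 3200 (95% exact counting interval 1095 to 15520). WRKY6 and WRKY45, also described as promoting senescence, rose by 5.77 ± 0.38 log2 units and 6.47 ± 0.43 log2 units. WRKY53 (AT4G23810), an early regulator of leaf senescence, was not called. It was at 1.76, 1.55 and 1.02 CPM at 14 d and 0.759, 0 and 3.81 CPM at 26 d, so the ages overlap (log2 fold change 0.09 ± 1.16, adjusted p = 0.949), and its sign depended on the library left out. It overlaps an antisense gene.

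Classic senescence markers were among the genes with the largest rises. Of 12 markers, 10 rose and 1 fell, with a median of 5.70. SAG12 (AT5G45890), a cysteine protease that is the standard marker of developmental senescence, had 0 counts in each 14 d library and 1739, 4440 and 3402 CPM at 26 d, at least 180400-fold higher if the 14 d group is set at 3 counts. SAG29, the sugar transporter SWEET15, had 3 counts at 14 d and 38537 at 26 d, a ratio of normalised counts of 13550 (95% exact counting interval 4636 to 65700). The phosphatase SAG113 rose by 9.17 ± 0.75 log2 units and SAG13 by 7.91 ± 0.95 log2 units. SAG101, a partner of the immune regulator EDS1, fell (log2 fold change -1.23 ± 0.30, adjusted p = 0.00866). SEN1, a gene known from dark-induced senescence, was at 85.03, 21.9 and 40.8 CPM and 32.2, 22.1 and 54.8 CPM and was not called (log2 fold change -0.44 ± 0.53, adjusted p = 0.489).

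**Figure D3:**
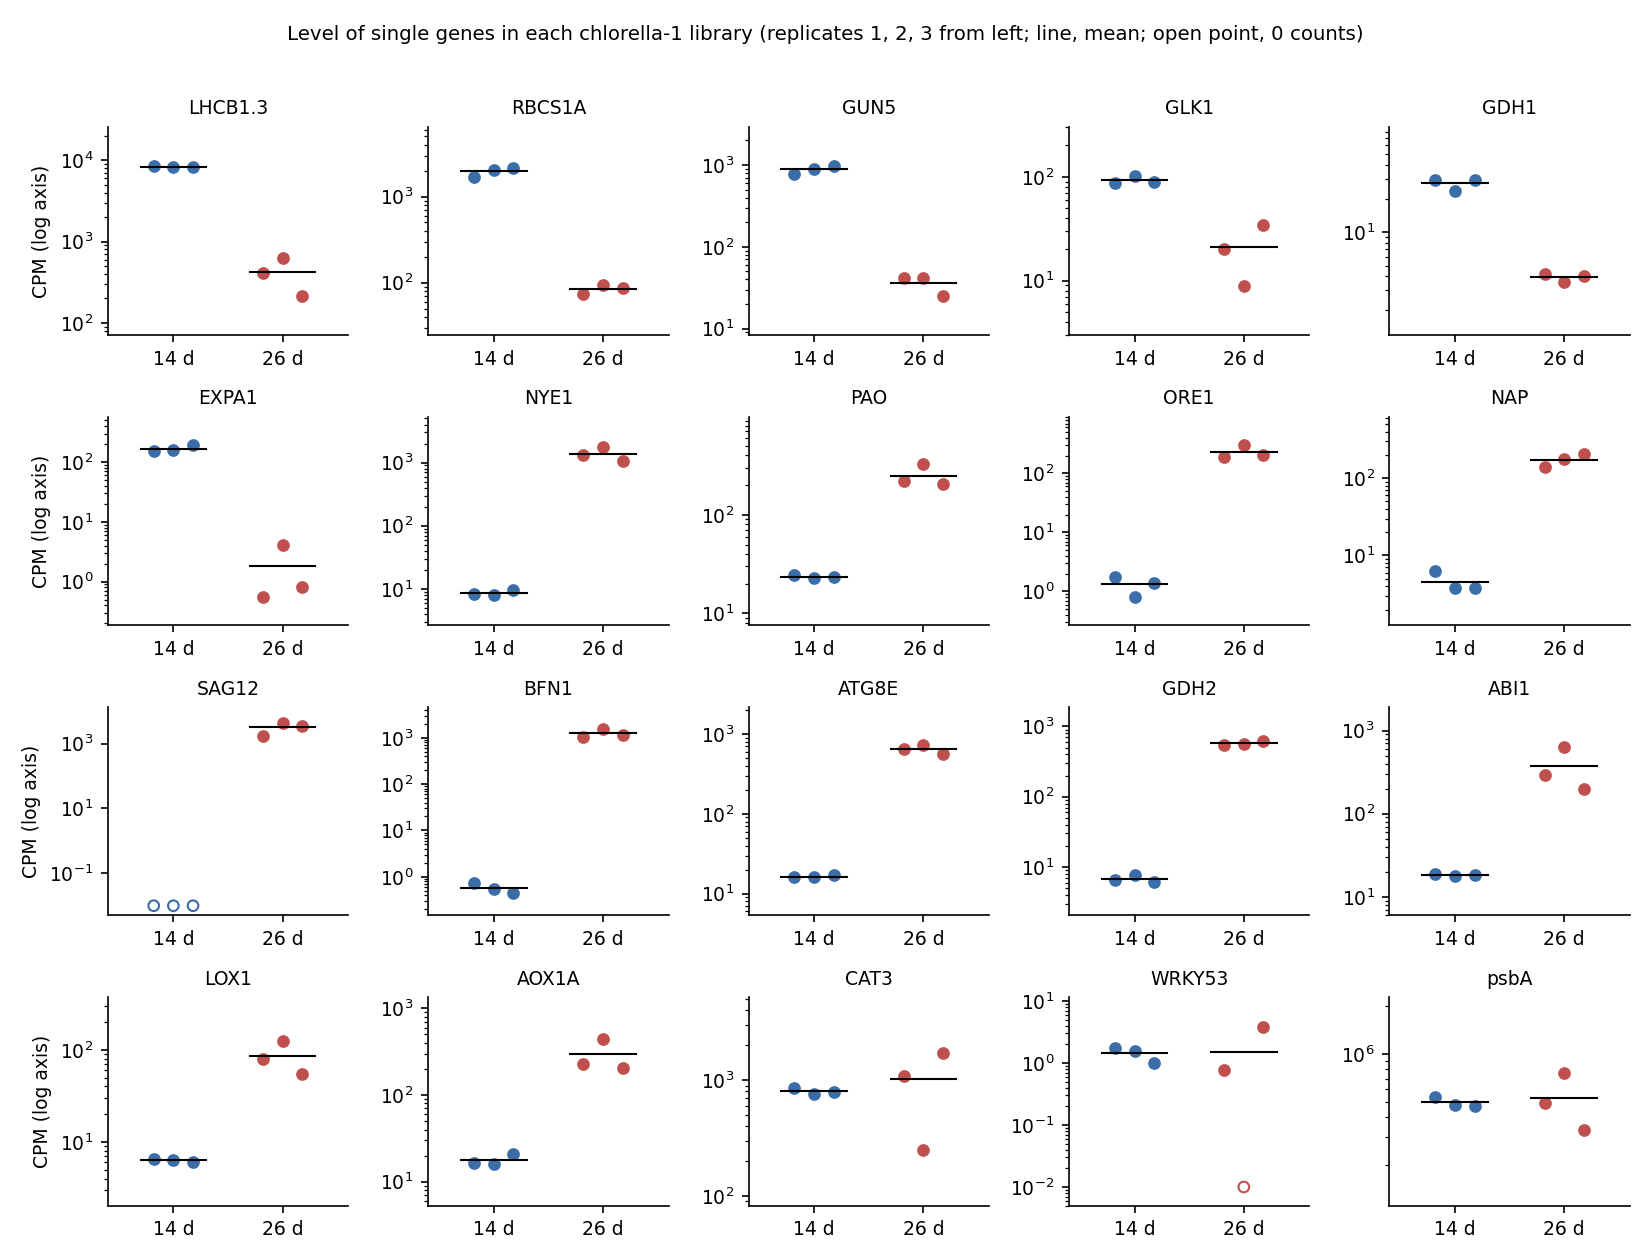
CPM (log axis) of 20 genes in each chlorella-1 library, with replicates 1, 2 and 3 from left to right within each age, a line at the mean of an age and open points, drawn at 0.01, for libraries with 0 counts. Photosynthesis genes lie lower and chlorophyll breakdown, NAC, nuclease and autophagy genes higher in all 26 d libraries, while CAT3, WRKY53 and psbA overlap between the ages.

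Genes for dismantling the cell's contents rose in most groups. Of 13 vacuolar and papain-like protease genes, 10 rose and 1 fell, with a median of 3.05, and all 9 genes of nucleases and phosphate salvage rose, with a median of 5.16. The granulin protease RD21A (AT1G47128) rose from 155, 129.7 and 155 CPM to 1661, 3225 and 1548 CPM (log2 fold change 3.87 ± 0.37, adjusted p = 0.000155). Metacaspase 9, MC9 (AT5G04200), known from the death of xylem cells, went from 1.2, 0.861 and 0.788 CPM to 380.4, 362 and 325 CPM (log2 fold change 8.55 ± 0.30, adjusted p = 2.68e-05), while the xylem protease XCP1 fell by 3.06 on the log2 scale, a call that was lost without any single 14 d library. BFN1 (AT1G11190), a nuclease of senescence and cell death that cuts RNA and DNA, was at 0.751, 0.553 and 0.438 CPM at 14 d and 1024, 1528 and 1171 CPM at 26 d (log2 fold change 11.06 ± 0.41, adjusted p = 2.68e-05). DPD1, an exonuclease that degrades organelle DNA, rose by 5.55 ± 0.31 log2 units, and the acid phosphatase PAP17 by 5.94 ± 0.34 log2 units. Each of these separated the ages in all 6 libraries.

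Genes of autophagy, the process that delivers cytoplasm and chloroplast fragments to the vacuole, rose broadly. Of 24 genes, 22 were higher and 0 lower, with a median of 2.25. The 9 ATG8 genes, whose products coat the autophagosome, ranged in log2 fold change from 0.65 for ATG8F to 7.43 for ATG8H. ATG8E (AT2G45170) was at 15.99, 15.98 and 16.9 CPM at 14 d and 656, 723 and 560.1 CPM at 26 d (log2 fold change 5.31 ± 0.23, adjusted p = 2.68e-05), a clean separation. ATG7, the activating enzyme of ATG8, rose by 6.67 ± 0.35 log2 units and ATG9, which carries membrane, by 4.64 ± 0.33 log2 units. ATG1C and ATG10 were not called (0.4 ± 0.15 log2 units and -0.41 ± 0.23 log2 units). The proteasome, the other main route of protein breakdown, is listed with 35 subunit genes: 8 of 35 subunit genes were higher and 3 lower, with a median of 0.21, which is below the background in both directions.

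In nitrogen recycling, isoforms of the same enzymes moved apart. Of 19 genes, 11 rose and 5 fell, with a median of 1.16. Cytosolic glutamine synthetase genes GLN1;1 and GLN1;3 rose by 3.27 ± 0.23 log2 units and 3.62 ± 0.25 log2 units, and the plastid isoform GLN2 fell by 3.40 on the log2 scale together with the ferredoxin-dependent glutamate synthase GLU1 at -3.3 ± 0.36 log2 units. The 2 glutamate dehydrogenase genes moved apart. GDH2 (AT5G07440) rose from 6.52, 7.65 and 6.13 CPM to 539, 567 and 628 CPM (log2 fold change 6.42 ± 0.24, adjusted p = 2.68e-05), while GDH1 (AT5G18170) fell from 29.4, 23.59 and 29.1 CPM to 4.22, 3.57 and 4.03 CPM (log2 fold change -2.79 ± 0.18, adjusted p = 4.58e-05); GDH1 overlaps an antisense gene. Asparagine synthetase ASN1, the dark-inducible isoform, rose by 3.01 ± 0.47 log2 units and ASN2 fell (-4.19 ± 0.57 log2 units). The nitrate transporter NRT1.5 and the amino acid permease AAP1 rose by 5.55 ± 0.40 log2 units and 4.59 ± 0.41 log2 units.

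Amino acids, lipids and sugars were each covered by a list. Of 21 genes of amino acid catabolism, 17 rose and 1 fell (0 without replicate 1 or 2 of the 14 d group), with a median of 2.32. The lysine-degrading enzyme LKR rose by 8.05 ± 0.62 log2 units and proline dehydrogenase PRODH1 by 5.05 ± 0.36 log2 units. Of 19 tested genes of peroxisomal beta-oxidation and related steps, 17 rose and 2 fell (1 without any single 14 d library), with a median of 2.48. The acyl-CoA oxidase ACX1 was at 3.81 ± 0.41 log2 units and the thiolase KAT2 at 3.23 ± 0.29 log2 units, and the phytyl ester synthases PES1 and PES2, which store phytol and fatty acids from dismantled thylakoids, rose by 8.42 ± 0.26 log2 units and 6.15 ± 0.30 log2 units. The defining enzymes of the glyoxylate cycle did not rise: isocitrate lyase ICL had 0 counts in all 6 libraries and malate synthase MLS 0 counts at 26 d. Of 19 genes of sugar starvation and transport, 12 rose and 4 fell, with a median of 2.12. The beta-glucosidase gene DIN2 had 0 counts at 14 d and was at least 91350-fold higher at 26 d, and the exporter SWEET4 rose by 5.2 ± 0.75 log2 units. The hexose carriers STP1, STP4 and STP14 fell, with log2 fold changes of -1.72, -1.05 and -2.92, and STP13 rose by 3.42 ± 0.32 log2 units.

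Genes of metal handling and of stress defence followed. All 8 tested metal genes rose, with a median of 2.40, among them the copper-transporting ATPase HMA5 at 7.34 ± 0.54 log2 units, the iron store FER1 at 7.19 ± 0.60 log2 units and the metal-nicotianamine transporter YSL1 at 3.87 ± 0.21 log2 units. Antioxidant enzymes were mixed, with 5 of 14 higher, which is close to the background, and 6 lower. Of chloroplast members, the superoxide dismutase CSD2 (-3.1 ± 0.22 log2 units), the thylakoid ascorbate peroxidase TAPX (-3.66 ± 0.27 log2 units) and peroxiredoxin PRXQ (-4.6 ± 0.73 log2 units) fell, and the stromal ascorbate peroxidase SAPX rose (0.89 ± 0.21 log2 units). The catalases differed among themselves: CAT1 rose by 4.15 ± 0.41 log2 units, CAT2, the main leaf catalase of photorespiration, fell (-1.65 ± 0.26 log2 units) and overlaps an antisense gene, and CAT3 (AT1G20620) was not called. CAT3, a catalase that is usually higher in old leaves, was at 858, 758 and 788 CPM at 14 d and 1087, 248 and 1732 CPM at 26 d, with replicate 2 below every 14 d library (log2 fold change 0.35 ± 0.60, adjusted p = 0.626). Without replicate 2 it was called higher at 0.84, and without replicate 3 its value was -0.26. The alternative oxidase AOX1A (AT3G22370), a mitochondrial enzyme that bypasses part of the electron transport chain, rose from 16.6, 15.9 and 21.1 CPM to 229, 448 and 205 CPM (log2 fold change 4.04 ± 0.38, adjusted p = 0.00014), and AOX1D went from 0 counts to at least 6058-fold higher.

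Heat shock genes rose in all 10 tested members, with a median of 4.06, although they are low in both ages, with sums of 10.7 to 11.8 CPM and 100 to 246 CPM. The list holds 13 genes, and 1 of the 10 tested had 0 counts over an age. The factor HSFA2 rose by 8.92 ± 1.05 log2 units. The chaperone HSP101 (AT1G74310) was at 1.55, 1.25 and 1.72 CPM and 7.29, 44.1 and 24.9 CPM (log2 fold change 4.08 ± 0.64, adjusted p = 0.0013). Of 45 tested glutathione S-transferase genes, 24 rose and 7 fell (12 without replicate 2 of the 26 d group), with a median of 1.25, from a log2 fold change of -3.31 for GSTU27 to at least 5023-fold higher for GSTU3, which had 0 counts at 14 d. Of 11 tested flavonoid genes, 5 were higher and 1 was lower (3 lower without replicate 1 and 2 without replicate 2 of the 26 d group). PAP1, an activator of anthocyanin genes, was at 0.461, 0.891 and 1.07 CPM and 18.9, 0.213 and 36.1 CPM, with replicate 2 below every 14 d library (log2 fold change 4.51 ± 1.38, adjusted p = 0.0234).

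Among hormone pathways, abscisic acid genes mostly rose. Of 27 tested genes, 21 were higher and 2 lower, with a median of 3.63; 1 was lower without any single 14 d library or without replicate 2 of the 26 d group. NCED3 (AT3G14440), the enzyme that limits abscisic acid synthesis, was at 15.1, 14.6 and 12.1 CPM at 14 d and 162, 350 and 111 CPM at 26 d (log2 fold change 3.9 ± 0.46, adjusted p = 0.000377). The phosphatase ABI1 (AT4G26080), a brake on the pathway that its hormone induces, rose from 18.7, 17.9 and 18.3 CPM to 295, 637 and 198 CPM (log2 fold change 4.36 ± 0.47, adjusted p = 0.000261), and the related phosphatases PP2CA and HAI2 were at 4.36 ± 0.44 log2 units and 6.37 ± 0.69 log2 units. The lower genes were ABA2, a dehydrogenase of synthesis (-1.01 ± 0.24 log2 units), and the dehydration gene RD22 (-2.64 ± 0.89 log2 units). For NCED3 and ABI1 the ages did not overlap, and replicate 2 had the highest and replicate 3 the lowest level of each at 26 d.

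In the ethylene list 11 of 18 genes rose and 4 fell, with a median of 1.83, and 1 or 2 were lower without any single 14 d library. The synthase ACS2 rose by 11.57 ± 1.17 log2 units and the response factor ERF1 by 7.32 ± 0.60 log2 units. The master regulators split, with EIN3 at 1.32 ± 0.21 log2 units and its relative EIL1 at -1.7 ± 0.20 log2 units, and the receptors did so as well, with ERS2 at 3.6 ± 0.40 log2 units and ERS1 at -0.67 ± 0.21 log2 units. Jasmonate genes were close to the background in both directions (34.3% and 31.4% of all genes tested), with 6 of 18 higher and 5 lower and a median of -0.41. The count of lower genes was 8 without replicate 2 of the 26 d group, 2 without replicate 1 of it, 3 without replicate 1 and 2 without replicate 3 of the 14 d group. LOX2 (AT3G45140), the chloroplast lipoxygenase of jasmonate synthesis, fell from 425, 430.5 and 539.5 CPM to 24.1, 9.78 and 94.2 CPM (log2 fold change -3.44 ± 0.80, adjusted p = 0.00724), whereas LOX1, a lipoxygenase outside the plastid that overlaps an antisense gene, rose by 3.77 ± 0.33 log2 units. The repressors JAZ1 and JAZ10, which jasmonate induces, rose by 6.62 ± 0.59 log2 units and 5.16 ± 0.77 log2 units.

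Salicylic acid and defence genes were closer to the background, with 6 of 16 higher and 3 lower (5 without replicate 3 of the 26 d group) and a median of 0.84, so both shares lie near or below the background. PR1 (AT2G14610), a marker of salicylic acid signalling, went from 8.12, 10.5 and 5.17 CPM to 33.6, 119 and 19.2 CPM (log2 fold change 2.85 ± 0.69, adjusted p = 0.00907). ICS1 (AT1G74710), the enzyme that makes most salicylic acid, was not called, with 8.23, 8.19 and 7.53 CPM and 0.642, 3.21 and 5.25 CPM (log2 fold change -1.4 ± 0.63, adjusted p = 0.0848); it was called lower with limma voom, in the fit of all 12 libraries and without replicate 1 or 3 of the 26 d group. S3H, which hydroxylates salicylic acid in old leaves, rose by 3.56 ± 0.91 log2 units. Of 16 tested cytokinin genes 6 rose and 10 fell, with a median of -2.95. Response regulators of type A, which cytokinin induces, were lower for 6 of 8 tested: the log2 fold change of ARR5 was -3.39, that of ARR6 -4.86, that of ARR9 -3.53 and that of ARR4 -2.41. ARR16 was higher by 5.91 ± 0.34 log2 units. ARR8, which holds nearly all of the counts of this list, was higher as well, by 1.1 ± 0.27 log2 units (adjusted p = 0.00989), a call lost without replicate 3 of the 14 d group (adjusted p = 0.051). The synthesis gene IPT3 fell (-5.57 ± 0.61 log2 units) and the oxidase CKX5, which removes cytokinin and overlaps other genes on both strands, rose by 5.64 ± 0.27 log2 units. The receptors also split: AHK3, the receptor known to delay leaf senescence, rose by 1.97 ± 0.36 log2 units, and AHK2 and AHK4 fell (-2.71 ± 0.32 log2 units and -3.19 ± 0.45 log2 units).

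Most tested auxin response and growth genes fell. Of 50 tested SAUR genes, 32 were lower and 14 higher, with a median of -4.30, and of 18 Aux/IAA genes 13 were lower and 4 higher, with a median of -2.01. The SAUR list holds 78 genes, and 11 of the 50 tested had 0 counts over an age. Those 11 passed the filter through the other age, so the SAUR numbers are a description. The summed level of the SAUR list did not fall, with 218 to 257 CPM at 14 d and 257.5 to 329.5 CPM at 26 d. That of the Aux/IAA list went from 264 to 269 CPM to 125 to 162 CPM. SAUR36, a SAUR gene that promotes senescence, was one of those that rose, by 7.52 ± 0.52 log2 units. Of 17 tested expansin genes, whose products loosen cell walls, 12 fell and 1 rose (2 higher without any single 14 d library or without replicate 1 or 2 of the 26 d group), with a median of -3.26. These 17 are part of 34 listed, and 3 of them had 0 counts over an age. EXPA1 (AT1G69530) was at 156, 158 and 189.9 CPM at 14 d and 0.555, 4.13 and 0.809 CPM at 26 d (log2 fold change -6.54 ± 0.86, adjusted p = 0.000581), well apart. Xyloglucan endotransglucosylases moved both ways, 9 of 17 lower and 5 higher. Among those with counts at both ages, log2 fold changes ran from -7.66 for XTH4 to 10.04 for XTH10. Their list summed to 135 to 154.5 CPM at 14 d and 240 to 509 CPM at 26 d. All 7 tested genes of cell division and DNA replication fell, with a median of -3.0, and their sum went from 12.3 to 16.7 CPM to 1.75 to 2.197 CPM. MCM2, part of the replicative helicase, was at -3.0 ± 0.34 log2 units.

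Taken as 1 list, genes of cytosolic and organelle ribosomes encoded in the nucleus fell modestly. The list was not split by kind of ribosome, so the fall cannot be assigned to either. Of 299 tested, 176 were lower and 16 higher, with a median of -0.80; the count of lower genes was 134 to 188 as single libraries were left out, and 188 without replicate 2 of the 26 d group. A fall of at least 2-fold as well was seen for 109. The largest fall was that of AT5G24490, described as a 30S ribosomal protein gene, at -4.77 ± 0.25 log2 units. It overlaps an antisense gene. SSR16, a ribosomal protein gene, was at 110.5, 114 and 127 CPM at 14 d and 10.7, 11.2 and 10.2 CPM at 26 d (log2 fold change -3.46 ± 0.18, adjusted p = 3.14e-05). Core histone genes were split, with 21 of 40 higher and 7 lower and a median of 0.64. The H2B gene AT3G53650 rose by 5.8 ± 0.29 log2 units. In the circadian clock 7 of 15 genes rose and 3 fell, and 4 rose without replicate 1 or 2 of the 14 d group. LHY, TOC1, PRR9, GI and ZTL were not called, while CCA1, a morning component, was at 1.23 ± 0.38 log2 units and FKF1, an evening component, at 2.46 ± 0.48 log2 units.

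Several genes with the largest rises lie outside these lists. Among symbol-bearing genes at 5 CPM or more, the 12 with the largest rises had 0 counts at 14 d, and their folds are lower bounds against a floor of 3 counts: after SAG12 and DIN2 came DOX1 (at least 69160-fold higher), a fatty acid dioxygenase of oxylipin formation, and PGAZAT (at least 35440-fold), a polygalacturonase of organ abscission. MAN1 (at least 32170-fold, with antisense overlap), KTI1, a trypsin inhibitor gene (at least 21140-fold), and ADPG1, a polygalacturonase of dehiscence (at least 13010-fold), followed. The others were PAP20 at 10520-fold or more, OCT1 at 7942, CCD8, a carotenoid cleaving enzyme of strigolactone synthesis, at 7829, AOX1D and GSTU3. OCT1 and CCD8 overlap antisense genes. PGAZAT and ADPG1 both encode enzymes that cut pectin.

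The 12 largest falls among symbol-bearing genes at 5 CPM or more came from genes of different kinds. XTH31 was at least 934-fold lower, MSRB6, a methionine sulfoxide reductase gene, at least 632-fold, rps16 at least 610-fold, SAUR24 at least 429-fold, PRE1, a small factor of gibberellin and light responses, at least 376-fold and EXPA5 at least 299-fold. These 6 had 0 counts in every 26 d library. The nicotianamine synthase NAS4 went from 2009 counts to 3, a ratio of normalised counts of 635 (95% exact counting interval 217 to 3081). IAA29 (-8.27 ± 0.68 log2 units), GASA6 (-7.7 ± 1.29 log2 units), which overlaps an antisense gene, and XTH4 (-7.66 ± 0.74 log2 units) fell too. The iron-deficiency factor gene bHLH38 was at -8.02 ± 0.82 log2 units and overlaps an antisense gene, and the acyltransferase gene DCF was at -8.2 ± 0.28 log2 units.

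Genes without a protein product changed as well. Of 27 small nuclear RNA genes tested, 26 rose and 0 fell, with a median of 3.28. Of 41 transfer RNA genes, 26 fell and 1 rose. Plastid transfer RNA genes are also among the 106 genes of the plastid genome that fell, so these counts overlap. The count of transfer RNA genes was not split by genome. Long noncoding RNA genes had 110 of 299 higher, which is close to the background, and 55 lower, which is below it. Short RNAs are poorly kept by such library kits, and these are counts over the genes, so they are not levels of the mature short RNAs. Of noncoding genes at 5 CPM or more, the largest rises were those of AT2G00640, which overlaps antisense genes, AT5G00580 and AT3G00940, at least 3107-fold, 1233-fold and 1134-fold higher from 0 counts.

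For microRNA genes the table counts reads over the primary transcript, so what follows says nothing direct about the mature microRNA, a short RNA that guides the silencing of complementary messengers. Of 31 tested genes with a mature sequence in RefSeq (TAIR10.1), 11 rose and 9 fell, both close to the background. Apart from MIR167d, the genes shown were chosen after their values were seen. Of the 14 genes of the miR169 family, whose mature forms target NF-YA transcription factor messengers, 5 were tested and all 5 fell. MIR169k was at 1.09, 1.84 and 1.17 CPM at 14 d and at 0 counts at 26 d, at least 79.3-fold lower, and MIR169m was at least 67.6-fold lower and MIR169i at least 19.0-fold. These genes passed the filter on low counts through the 14 d libraries, so their number is a description. MIR169a fell by 4.11 on the log2 scale (adjusted p = 0.000364) and MIR169l by 2.85 (adjusted p = 0.0187). Genes i, k, l and m lie within 6420 bases of chromosome 3 (TAIR10.1, 9871960 to 9878379) and share the mature sequence, shown here because the whole group fell, with the seed, bases 2 to 8, in capitals.
miR169i, k, l and m: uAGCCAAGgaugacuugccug
miR169a-5p: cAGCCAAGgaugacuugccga

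MIR167d and MIR167a share another seed, that of a microRNA of auxin response factor messengers. MIR167d was at 9.10, 10.2 and 9.05 CPM at 14 d and 0.613, 0.213 and 0.396 CPM at 26 d, and fell by 4.49 on the log2 scale (SE 0.36, adjusted p = 8.66e-05), whereas MIR167a was not called at -1.15 (adjusted p = 0.0656).
miR167d: uGAAGCUGccagcaugaucugg
miR167a-5p: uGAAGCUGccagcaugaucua

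The 11 that rose are close to the background share of 34.3%, and 4 of them are described. MIR408 rose by 3.48 on the log2 scale (adjusted p = 0.00608; antisense overlap), MIR398b by 1.88 (adjusted p = 0.0226; antisense overlap), MIR827 by 2.84 (adjusted p = 0.0168) and MIR168a by 2.55 (adjusted p = 0.00184). All 4 are low, at most 2.44 CPM in any library. MIR398c, whose mature 3p form is identical to that of MIR398b, was not called at 0.39. miR408 and miR398 target messengers of copper proteins, miR827 that of NLA, a ubiquitin ligase of phosphate transport, and miR168 that of ARGONAUTE1. Their seeds differ.
miR408-3p: aUGCACUGccucuucccuggc
miR398b-3p: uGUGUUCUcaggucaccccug
miR827: uUAGAUGAccaucaacaaacu
miR168a-5p: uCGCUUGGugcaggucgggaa

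Because so many genes moved together, the 250 bases before each nuclear gene's start (RefSeq, TAIR10.1) were searched on both strands for short motifs. The searched motifs were CACGTG, the G-box bound by bZIP and bHLH factors; TTGACC or TTGACT, the W-box of WRKY factors; AATATCT, the evening element; TGGGCC and AACCCTA, known from ribosomal protein promoters; and GATAAG of GATA factors. None of these motifs is part of another, and shares are descriptions without a test. CACGTG lay in 6.49% of all 27442 windows, 7.5% of 18543 windows of genes tested, 9.14% of those that rose, 6.33% of those that fell and 9.91% of those that rose by at least 8-fold. The W-box letters were in 28.3% of genes tested, 31.3% of those that rose, 25.0% of those that fell and 34.2% of those that rose by at least 8-fold. TGGGCC was least frequent at the extremes, with 16.9% of tested genes, 8.75% of those that rose and 11.4% of those that fell by at least 8-fold. AATATCT and GATAAG varied little, from 9.61% to 11.6% and from 11.5% to 14.0% over the groups of tested genes. By list, TGGGCC was in 47.5% of ribosomal protein windows and AACCCTA in 18.7%, against 5.19% of genes tested, and CACGTG was in 45.5% of the 11 flavonoid windows, 33.3% of the 15 clock windows, 30.8% of the 13 starch windows and 20% of the 20 light-harvesting windows. AATATCT was in 60% of the clock windows. A match says only that the letters are there.

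Windows of genes that the results turn on are shown 5′ to 3′ along the gene, ending at the base before the gene's start, with matches to any searched motif, on either strand, in capitals. That of LHCB6, an antenna gene that fell by 5.09 on the log2 scale, lies on the minus strand at chr1:5447881-5448130 and holds CACGTG and GATAAG. That of NAP, which rose by 5.23, lies on the plus strand at chr1:26121830-26122079 and holds CACGTG near its far end. That of WRKY75 on the minus strand at chr5:4151202-4151451 holds TTGACT close to the start and CTTATC, the reverse complement of GATAAG, near its far end.
LHCB6: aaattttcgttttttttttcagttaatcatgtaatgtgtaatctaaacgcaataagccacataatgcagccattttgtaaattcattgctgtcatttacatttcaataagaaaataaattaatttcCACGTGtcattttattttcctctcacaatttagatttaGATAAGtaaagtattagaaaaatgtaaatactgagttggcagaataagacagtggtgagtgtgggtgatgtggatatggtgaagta
NAP: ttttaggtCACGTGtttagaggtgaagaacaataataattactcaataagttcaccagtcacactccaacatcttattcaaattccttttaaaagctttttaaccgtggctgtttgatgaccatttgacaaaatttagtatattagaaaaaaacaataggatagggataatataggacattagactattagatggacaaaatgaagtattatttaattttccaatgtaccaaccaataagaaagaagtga
WRKY75: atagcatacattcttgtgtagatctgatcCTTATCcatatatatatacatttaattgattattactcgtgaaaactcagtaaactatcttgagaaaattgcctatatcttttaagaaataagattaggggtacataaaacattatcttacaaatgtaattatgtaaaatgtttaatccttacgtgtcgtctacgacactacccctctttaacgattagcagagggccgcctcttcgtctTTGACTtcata

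How far these changes differ from those of wild-type leaves was tested in a fit of all 12 libraries, as the age change of chlorella-1 minus that of Col. Changes and differences in this comparison are on the log2 scale, and adjusted p-values are those of the difference. The model takes 1 spread per gene for all 4 groups, although the mutant libraries varied by 12.5% at 14 d and 44.3% at 26 d. For NYE1 the standard error was 0.28 for the difference and 0.33 for the mutant's age change in its own fit. Adjusted p-values of the difference may therefore be too small for genes that vary more in the 26 d mutant libraries. Of 20398 genes, 4325 had a more positive and 4283 a more negative change in the mutant (21.2% and 21.0%, 42.2% in all). Of the 6746 genes that rose in chlorella-1, 3036 were also called higher in Col and 175 lower, and the rise was called larger in the mutant for 3855 and in the opposite sense for 37. Of the 6180 that fell, 3059 were called lower in Col and 94 higher, with a fall called larger in the mutant for 3603 and the opposite for 24. The median Col change was 0.59 for the genes that rose and -0.74 for those that fell, beside 2.11 and -1.94 in the mutant. Genes chosen by their call in 1 line tend to have the larger change there, so the reverse choice is given as well. Of 3820 genes called higher in Col, 3036 were called higher in chlorella-1, the rise was called larger in the mutant for 1497 and the difference had the other sign for 459, with medians of 1.23 in Col and 2.02 in the mutant. Of 3962 called lower in Col, 3059 were called lower in chlorella-1, with a fall called larger in the mutant for 1487 and the other sign for 524, and medians of -1.35 and -2.14.

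The photosynthesis groups differed in size. In Col the antenna list had a median of -1.58, the photosystem list -1.29 and the Calvin cycle list -1.54, and the change was more negative in chlorella-1 for 18 of 20, 30 of 30 and 18 of 20 members. For rbcL the difference was -2.76 ± 0.36 (adjusted p = 0.000167). Breakdown genes differed the other way, with 9 of 13 more positive: for NYE1 the Col change was 2.93 and the difference 4.33 ± 0.28 (adjusted p = 5.78e-06). GLK1 and GLK2 were at -0.13 and -0.24 in Col, and the differences were -2.02 ± 0.53 and -1.84 ± 0.63 (adjusted p = 0.0107 and 0.0354). Autophagy and nuclease genes also separated the lines, with 20 of 24 and 6 of 9 members more positive. ATG8E changed by 1.1 in Col (difference 4.16 ± 0.26, adjusted p = 4.68e-06) and BFN1 by 3.1 (difference 7.91 ± 0.53, adjusted p = 6.5e-06).

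Senescence regulators also rose in Col. In the NAC list the Col median was 3.04, with 17 of 18 members called higher there too, and 13 were more positive and 1 more negative in chlorella-1. ORE1 changed by 6.76 in Col, and the difference was not called (0.65 ± 0.53, adjusted p = 0.347). The more negative member was ORS1, at 5.29 in Col (difference -1.93 ± 0.38, adjusted p = 0.00217). In the list of senescence markers the Col median was 4.83, and 3 of 12 members were more positive and 2 more negative. SEN1 rose in Col by 4.36, and its difference was -4.83 ± 0.75 (adjusted p = 0.000535). In the WRKY list the Col median was 1.81, with 11 of 49 members more positive and 9 more negative. For the marker and WRKY lists these shares are close to those of all genes in this comparison, 21.2% and 21.0%.

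Some genes had a change of opposite sign or near 0 in Col. The sugar carrier STP1 was at 1.47 in Col and -1.72 in the mutant (difference -3.23 ± 0.42, adjusted p = 0.000165), and DRM2, a dormancy-associated gene of low sugar, at 2.71 and -1.4 (difference -4.14 ± 0.49, adjusted p = 8.96e-05). The defensin gene PDF1.2 was at 5.3 and -2.63 (difference -8.02 ± 1.35, adjusted p = 0.000858), and its call in the mutant was lost without replicate 1 or 3 of either age group and with the replicate block. GDH1 was at 0.24 in Col against -2.79 in the mutant (difference -3.08 ± 0.23, adjusted p = 9.8e-06). Core histones had a Col median of -0.56 with 20 lower there, and 17 of 41 were more positive in chlorella-1. Mitochondrial protein genes had a Col median of 0.17, and 22 of 31 were more positive. Cell division genes fell in both lines, with a Col median of -3.16 and 1 of 8 differences called. Genes without counts at 14 d in both lines, SAG12 among them, give no usable test of the difference.

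**Figure D4:**
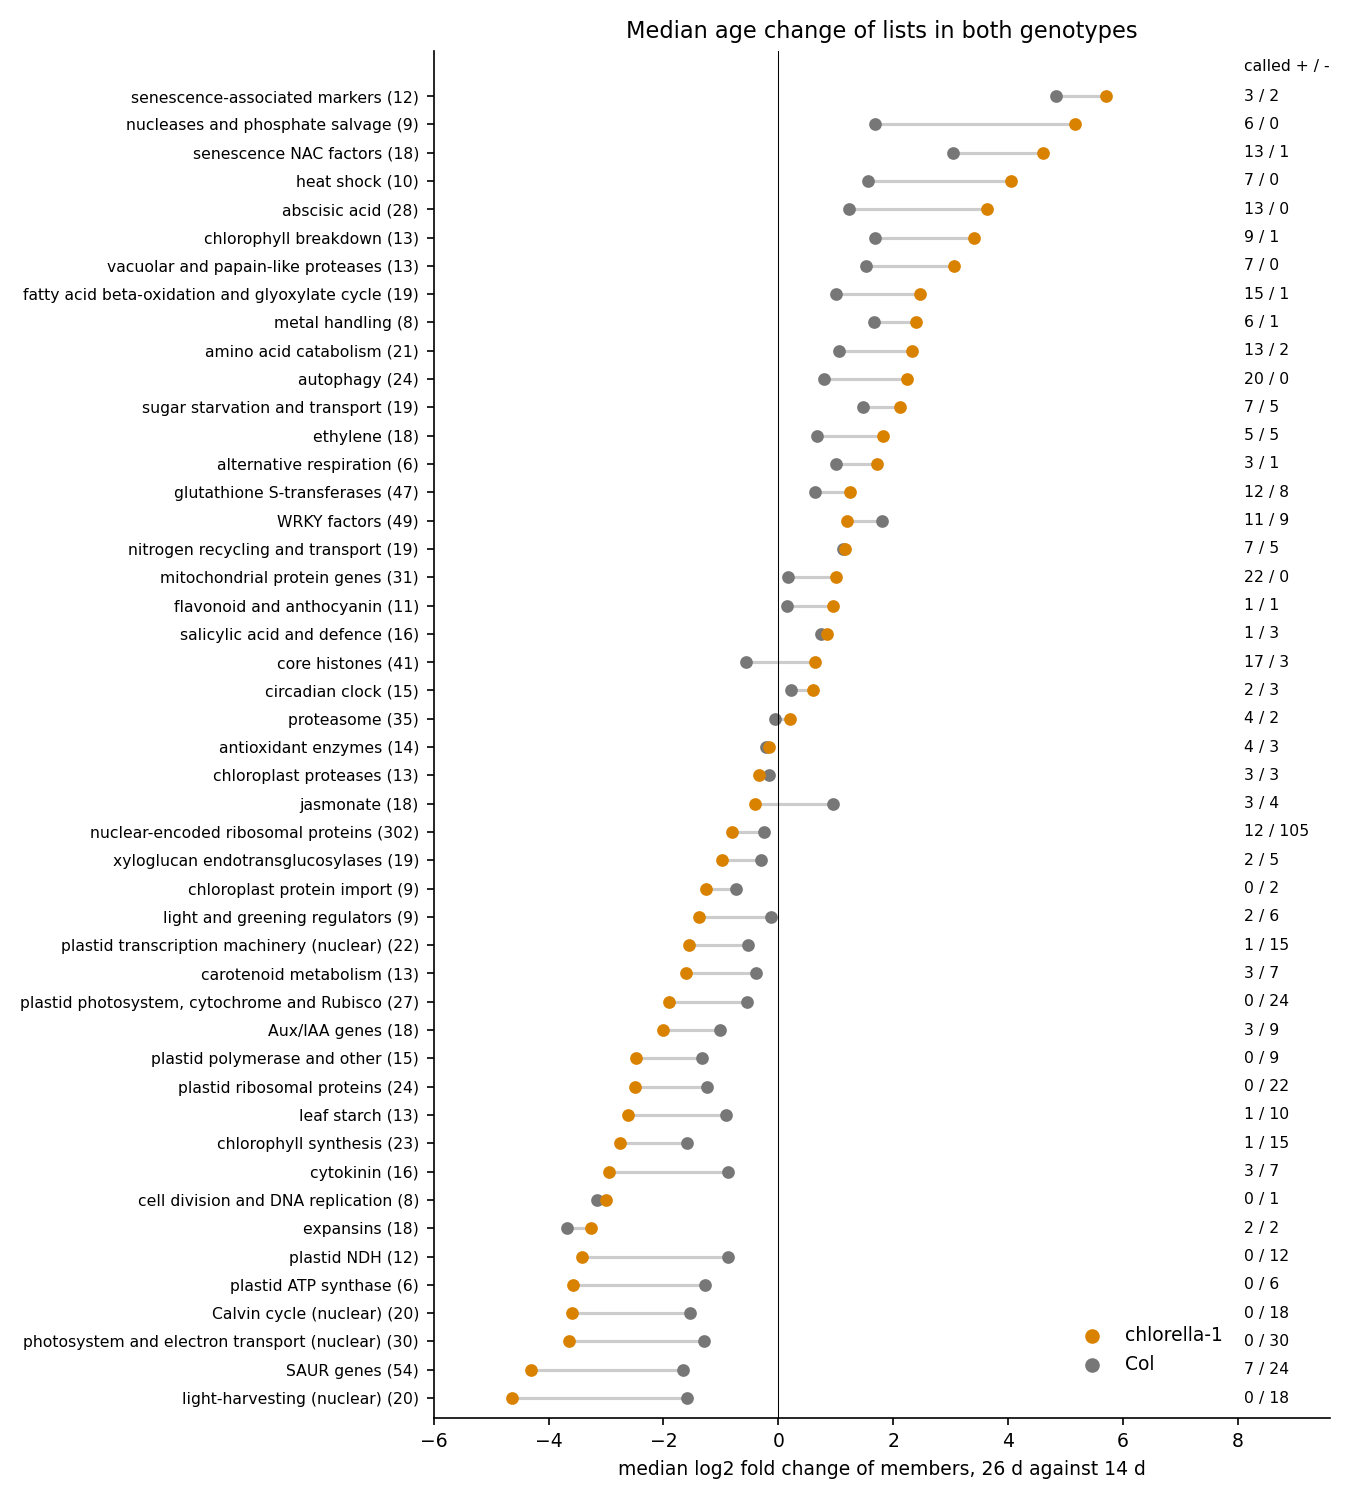
Median log2 fold change (26 d minus 14 d) of each gene list in chlorella-1 (orange) and Col (grey), with the numbers of members whose age change was called more positive and more negative in chlorella-1 at the right. For antenna genes the medians are -4.63 and -1.58, for autophagy 2.25 and 0.80, and for cell division -3.0 and -3.16. Medians of chlorella-1 come from the fit of its 6 libraries and those of Col from the fit of all 12. The genes tested can differ between the fits, with 7 and 8 for cell division, and the labels give the number of the second.

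Markers of other cell types moved with age. All 7 tested pollen genes of 8 rose, with summed levels of 0 to 0.137 CPM at 14 d and 16.3 to 58.4 CPM at 26 d. They passed the filter on low counts through the 26 d libraries, so their number is a description. The defining pollen gene VGD1 was at 0 counts at 14 d and at 31.4, 7.70 and 30.2 CPM at 26 d. In the floral organ list, 2 of 7 genes were tested and PI rose, with sums of 0.324 to 0.584 CPM and 1.92 to 2.86 CPM, while AP1 was at 0 counts in all 6 libraries. Epidermis and trichome genes fell in 5 of 6 tested, with sums of 284 to 315 CPM and 20.2 to 48.4 CPM; GL1 was at 0 counts throughout. Of 8 tested vascular genes 5 fell and 1 rose, 3 falling without any single 14 d library, with sums of 267 to 308 CPM and 159 to 245 CPM. Of 5 tested guard cell genes 4 rose and 1 fell, the fall being lost without any single 14 d library or without replicate 3 of the 26 d group, with sums of 8.91 to 10.3 CPM and 36.3 to 44.7 CPM. Of 8 root genes only SCR and SHR were tested, and the other 6 had at most 7 counts over an age, with sums of the list of 5.10 to 5.60 CPM and 0.638 to 1.402 CPM and both tested members lower (1 lower without any single 14 d library or without replicate 3 of the 26 d group). The part of these marker changes in the results above was not tested.

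The old libraries also differed from each other by gene group. Taking for each list the mean over members of log2(CPM + 0.5) minus the mean of the 3 libraries of 26 d, replicate 2 was above the others for heat shock genes (0.71), NAC factors (0.43) and senescence markers (0.46). It was below them for the pollen markers (-0.72), greening regulators (-0.69), flavonoid genes (-0.61), photosystem genes (-0.59) and starch genes (-0.44). Replicate 3 was lowest for abscisic acid genes (-0.78), and replicate 1 for heat shock (-0.78) and salicylic acid genes (-0.75). These deviations are small beside the age change of the photosystem, NAC and abscisic acid lists, whose medians were -3.64, 4.61 and 3.63, but not beside that of the salicylic acid and flavonoid lists, at 0.84 and 0.95.

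**Figure D5:**
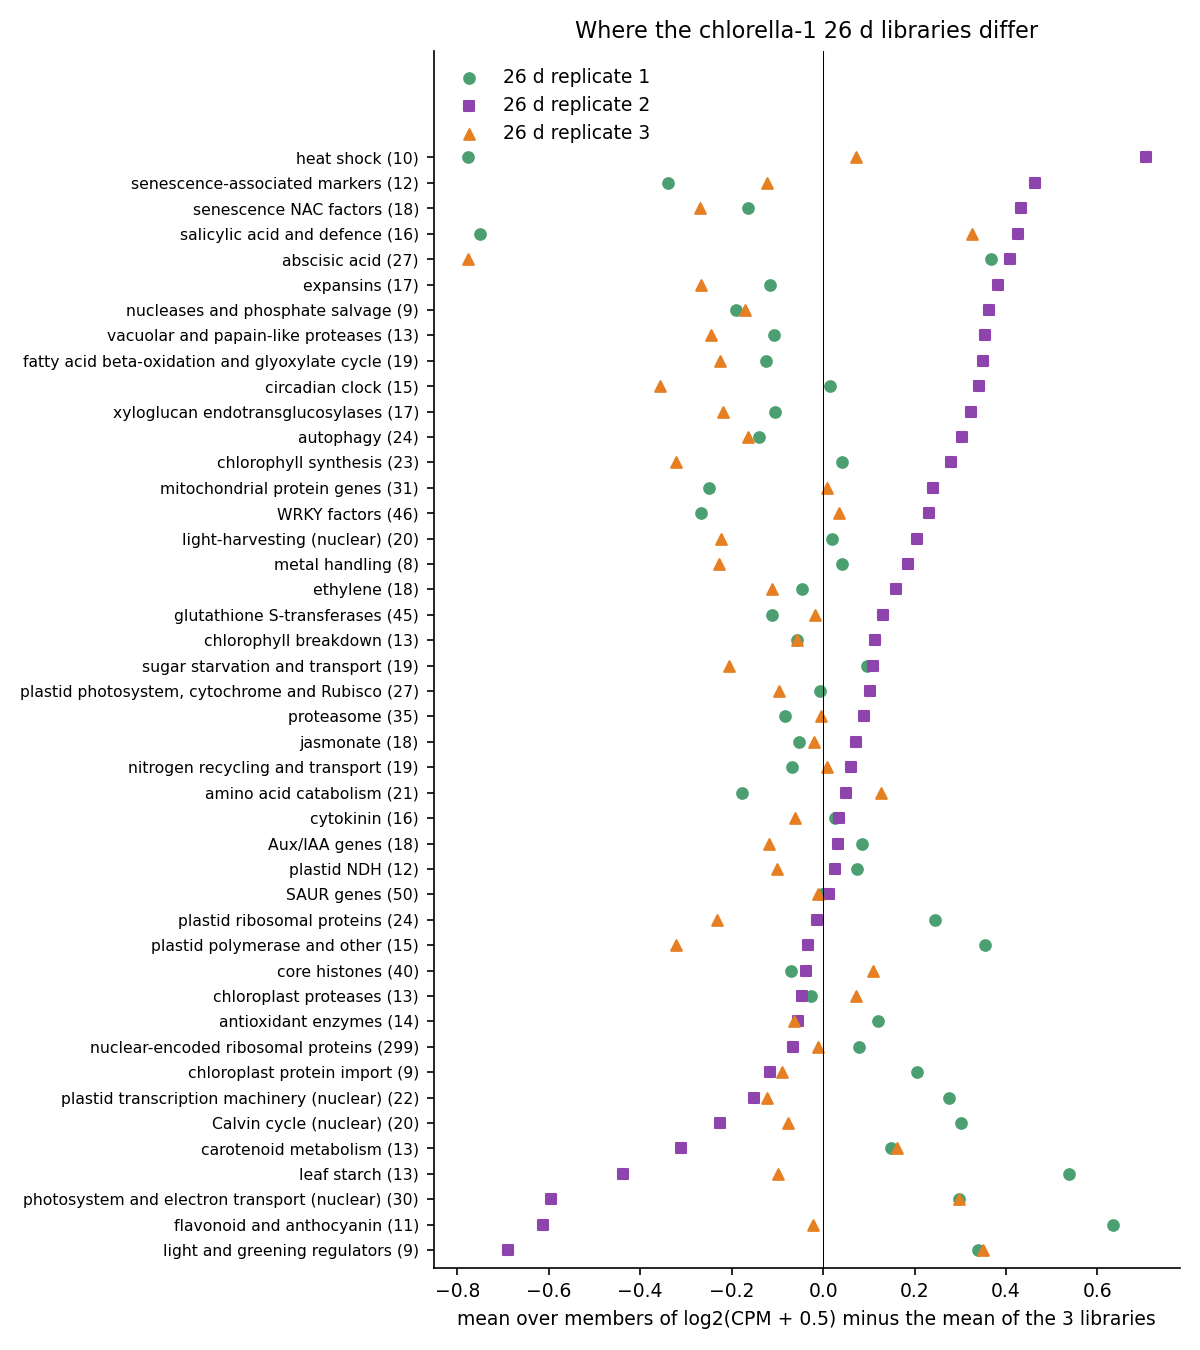
Deviation of each 26 d chlorella-1 library from the mean of the 3 libraries of that age, as the mean over list members of log2(CPM + 0.5). Replicate 2 lies highest for NAC factors and senescence markers and lowest for greening regulators and photosystem genes, and replicate 3 lies lowest for abscisic acid genes.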

How the data were processed

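Total RNA of Arabidopsis leaves was sequenced in 12 libraries, of which the 6 of chlorella-1 were analysed and the 6 of Col used for the test of a difference. The deposited table holds whole-number read counts per gene, not normalised, which the authors made with tools that the submitters' processing notes give as STAR, HISAT2, HTSeq, StringTie and DESeq2 on the build TAIR10; their versions, roles and the strand setting are not given in the sources used here. The 12 FPKM columns were not used. The 50 rows that name no gene, with 0.0771% to 0.216% of the counts of a library, were left out, and all 38288 other IDs matched the TAIR10.1 annotation (RefSeq), which gave loci, types and overlaps.

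Counts of the 6 libraries were filtered with filterByExpr, scaled with TMM factors and fitted with edgeR 4.0.16 (quasi-likelihood, two-sided, R 4.3.3), with Benjamini-Hochberg adjustment over all 19652 genes and a threshold of 0.05. The standard error is the log2 fold change divided by the square root of F. The 12-library model gave the Col changes and differences. A group with 0 counts gives a bound, computed as if it held 3 counts in all; 1 to 3 counts give a ratio and its Clopper-Pearson 95% interval. Both cover counting error only. Shares were compared by exact permutation. The fit was tested on simulated data in which each gene had the same spread at both ages and few genes changed. Of 100 genes changed 4-fold, 51% were recovered with 4 false calls among 19300 genes in the simulation, and 4% of those changed 2-fold. In the data the spread was 12.5% at 14 d and 44.3% at 26 d and 65.8% of genes were called, so these rates need not hold there. The labels do not pair replicate numbers across the ages. Deviations of same-numbered libraries correlated with r of -0.139, -0.041 and -0.006, and those of other pairs with r from -0.058 to 0.092. So few values cannot decide whether libraries shared a batch.

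Members and gene lists were chosen with earlier results of these data known. Genes were named by rule: those with the 12 largest and 12 smallest changes among called genes that did not overlap, reached 5 CPM in a group and carry a symbol; the 2 members with the smallest p in each list; the 10 nuclear genes with the most counts at each age; the 3 noncoding genes at each extreme; the 6 at each extreme of the difference; and a set of known senescence and photosynthesis genes. Other list members are named for their roles, with values seen. The alternatives tried were other size factors, scaling on nuclear genes, psbA or ribosomal and transfer RNA genes left out, other filters, limma 3.58.1 voom, DESeq2 1.42.0, a fit of all 12 libraries, a replicate block and the omission of each library in turn. Tables and figures were made with Python 3.11.15.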

Additional observations from a re-analysis of the deposited data

Results flagged for a closer look

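The age change differed between chlorella-1 and Col, by the test of the difference, in 8608 genes of 20398. Among those named for the largest differences (log2, chlorella-1 minus Col), BGAL11, a beta-galactosidase gene, was at 14.29, ACA3, a carbonic anhydrase gene that overlaps an antisense gene, at 14.1, PAP22, a purple acid phosphatase gene, at 13.79 and BCP1, which the annotation describes as a homolog of a pollen protein, at 10.92. The phospholipase C gene NPC4 was at 10.37 and the phosphatase gene HAI3 at 9.552. At the other end were rps16 at -10.64, SAUR24 at -9.479, MSRB6 at -9.316, XTH31 at -9.1, PRE1 at -8.997 and the defensin gene PDF1.2 at -8.02. PAP22, ACA3 and BCP1 had 0 counts in the 14 d mutant libraries, BGAL11 had 2 counts there and 0 CPM in the 26 d Col libraries, and rps16, SAUR24, MSRB6, XTH31 and PRE1 had 0 counts in the 26 d mutant libraries, so these fitted differences depend on the prior count and are no bounds. The Col libraries of 26 d differed among themselves for rps16, with 0, 10.06 and 9.995 CPM. At 26 d in the mutant BGAL11 was at 19.1, 4.99 and 14.8 CPM, ACA3 at 8.08, 2.86 and 7.18 CPM and BCP1 at 5.74, 1.65 and 8.82 CPM. The pollen marker VGD1 was at 31.4, 7.70 and 30.2 CPM in the same libraries, likewise lowest in replicate 2, and its part in these differences was not tested. The difference of each was called in that model, with 3 libraries per group.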

How the results depend on the processing

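In all 110 alternative values, counts of higher and lower genes and of called differences stayed within 1.5 times the reported values. The change of the plastid share was checked for its sign only, which it kept. Its size did vary, from -15.4 percentage points as reported to -37.1 with psbA left out. No call turned to the opposite direction under any alternative. Higher and lower genes numbered 6897 and 6001 with DESeq2 size factors, 6424 and 6231 with nuclear genes only, 7011 and 5702 with psbA left out, 6677 and 6636 with limma voom, 7114 and 6259 with DESeq2, and 7184 and 7337 in the fit of all 12 libraries. Leaving out single libraries gave 5942 to 7290 higher and 4736 to 6764 lower. The replicate block, a pairing that the labels do not state, gave 6013 and 5593. Scaling moved the median of all genes by at most 0.075 on the log2 scale; without a filter it was 0.21 over 27370 genes, a set that holds more low genes. The values that turned sign were not called in the 6-library fit. CAT3 was at -0.054 with limma voom and -0.017 with the block, and between -0.26 (without replicate 3 of the 26 d group) and 0.84 (without replicate 2, where it was called) as single libraries were left out. WRKY53 was at -1.79 with limma voom, -1.09 with the block and -0.088 without replicate 3 of the 14 d group, and ranged from -1.83 to 0.69 without single libraries. psbA lay between -0.25 (without replicate 2 of the 26 d group) and 0.33. The cause was not tested. PDF1.2 was not called with the block (adjusted p = 0.1, edgeR) or without any of 4 libraries, SCR not without any of 4 and ARR8 not without replicate 3 of the 14 d group (adjusted p = 0.051). Of the values of named genes, 2714 kept their direction and call, and of those of list counts 1693 of 1790 stayed within 1.5 times; most that moved are counts of 5 or fewer. Of larger counts, a fold of at least 2 as well left 109 of 176 lower ribosomal protein genes, 16 of 27 higher mitochondrial genes and 4 of 8 higher proteasome genes, the block left 4 of 7 higher clock genes, and lower core histones numbered 11, not 7, in the fit of all 12 libraries. Lower greening regulators numbered 4, not 7, without any single 14 d library, and lower glutathione S-transferases 12, not 7, without replicate 2 of the 26 d group. Of the values of differences between the lines, 2129 kept their call and 83 lost it. Depth limits the low genes: a gene with 0 counts in a group may lie at up to 3 counts.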
